A study of Mus musculus with 2 samples.

Results

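Connexins are the subunits of gap junctions, the channels through which neighboring cells exchange ions and small metabolites. Described here are 5 connexin genes: Gja1, Gjb2, Gjb5, Gjb6 and Gjb1. Gja1 is the most widely expressed connexin and is found in basal cells of the prostate and of stratified epithelia, Gjb2, Gjb5 and Gjb6 are known from stratified epithelia such as the epidermis, and Gjb1 is the connexin of simple secretory epithelia, among them hepatocytes and luminal cells of the prostate. Subunits assemble into a hemichannel, and the hemichannels of neighboring cells dock to make a channel, so that the mixture of connexins in a cell sets which channels it can make. The genes were chosen by name. Every spot on both arrays that was not a control and carried 1 of the 5 symbols was taken, which gave 7 of the 41174 probes and 5 of the 27554 gene names on the array.

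RNA of prostaspheres, the spheres that prostate epithelial cells form in Matrigel, was hybridized to 2 two-color arrays of 1 slide. In the genotype comparison, wild-type prostaspheres treated with tamoxifen (TAM) were labeled with Cy5 and ER-Sox9flox/flox prostaspheres treated with TAM with Cy3. In the treatment comparison, ER-Sox9flox/flox prostaspheres treated with vehicle were labeled with Cy5 and ER-Sox9flox/flox prostaspheres treated with TAM with Cy3. In ER-Sox9flox/flox cells, both Sox9 alleles are floxed and a Cre that TAM activates is expressed from the Rosa26 locus, which is not restricted to 1 cell type. Wild-type cells were labeled as wild type for Sox9, and ER-Sox9flox/+ cells, which the labels also list, are in neither comparison. All 4 RNAs were labeled as C57/Bl6J in background and came from the urogenital sinus (UGS) at 16 days post conception by the labels, whereas the methods name adult prostate for this assay. Below, the array of each comparison is called the genotype array or the treatment array. The cultures spent 6 days in Matrigel with dihydrotestosterone and 6 more days with 5 µM TAM or vehicle. Each log2 ratio is Cy5 over Cy3, that is, Sox9-expressing over Sox9-deleted RNA, and n = 2 arrays. Whether the cultures came from separate animals is not stated, so the p-values do not measure a spread between animals. In limma they rest on the spread between these 2 arrays, moderated with the spread of all tested probes. The arrays hold different comparisons, so that spread also includes any difference between the comparisons.

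Each comparison has its own limit. Both RNAs of the genotype comparison had TAM but differ in alleles, and those of the treatment comparison share the alleles but differ in TAM. The dyes were not swapped on either array, so a dye effect and an effect of Sox9 cannot be told apart for any gene. The direction rests on the titles, genotypes and treatments. The source names, if read as the deleted gene, would turn every sign. With the direction used, 2 Sox9 probes had mean log2 ratios of 2.53 and 1.22 and the remaining one had -1.11. Krt5 (2.02) and Krt14 (1.96), keratins of basal cells, were higher on both arrays. Of the prostate markers, Hoxb13 was well above background while Pbsn was not.

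The probes are 60-base oligonucleotides, and where they lie can matter if RNA is amplified from the poly(A) tail. The methods state that the RNA was amplified but not how this was primed. Coordinates are on mm9, the build in the file header. The Gja1 probe is at chr10:56109814-56109873 on the plus strand, and all 3 of its forward frames hold a stop codon. Both Gjb2 probes are on the minus strand of chromosome 14, the brighter at chr14:57717629-57717688 and the dimmer at chr14:57719067-57719126, with 1438 bases between their starts, so the brighter probe is nearer the 3′ end. Both Gjb6 probes are on the same strand, the brighter at chr14:57743017-57743076 and the dimmer at chr14:57742226-57742285, with 791 bases between their starts, so there the dimmer probe is nearer the 3′ end. The Gjb5 probe is at chr4:127032665-127032724 on the minus strand. The Gjb1 probe is at chrX:98579837-98579896 on the plus strand. In the RefSeq gene order, Gja3, Gjb2 and Gjb6 are consecutive protein-coding genes, with 0 others between them. Gjb2 and Gjb6, whose products also mix in 1 channel, are therefore neighbors, and 23100 bases separate the nearest pair of their probes. Exon and UTR annotation on mm9 was not used here.

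Of the 7 probes, 3 are printed as deposited because the readings turn on them: the Gjb6 probe with the highest mean log2 ratio of the 7, the dimmer Gjb2 probe that gives a second reading of that gene, and the Gjb1 probe that was not well above background. Each has 2 forward frames without a stop codon. No letters are in capitals, since no part of a probe was singled out.
Gjb6 brighter probe, chr14:57743017-57743076 (minus): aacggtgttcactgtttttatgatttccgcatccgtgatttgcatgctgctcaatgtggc
Gjb2 dimmer probe, chr14:57719067-57719126 (minus): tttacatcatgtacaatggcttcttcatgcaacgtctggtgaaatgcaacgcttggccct
Gjb1 probe, chrX:98579837-98579896 (plus): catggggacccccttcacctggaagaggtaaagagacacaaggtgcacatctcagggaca

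Gja1 was higher in Sox9-expressing prostaspheres on both arrays. Its probe is spotted 10 times, and after background subtraction its average brightness was 424 in wild-type Cy5, 120 in deleted Cy3, 422 in vehicle Cy5 and 110 in deleted Cy3. This brightness is not adjusted between the dyes or between the arrays, whereas log2 ratios are taken after normalization. It can be compared only within a dye, and across arrays only roughly. The log2 ratio was 0.58 on the genotype array and 0.81 on the treatment array. The average of both was 0.70 ± 0.16 (SD, n = 2), a 1.62-fold difference. In limma, the unadjusted p was 0.0021 and the Benjamini-Hochberg adjusted p 0.118, with a 95% interval of 0.43 to 0.96 for the mean log2 ratio. Gja1 therefore did not pass the test across all 22731 probes tested. A share of 1.46% of the tested probes had a higher mean.

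The replicate spots show how finely each array read Gja1. In the genotype comparison the 9 spots kept had log2 ratios from 0.54 to 0.63, with a median of 0.58 and an SD between spots of 0.027. In the treatment comparison the 10 spots ran from 0.73 to 0.93, with a median of 0.80 and an SD of 0.062. All 19 kept spots were above 0, and the ranges of the arrays did not overlap. One spot of the genotype comparison (0.29) was marked as an outlier by the scanner software and left out. With it the mean log2 ratio of both arrays was 0.68. Spots of an array share 1 pair of RNAs, so their spread is technical. Which array read higher depended on the scaling: with the arrays brought to 1 spread, Gja1 had 0.79 on the genotype array and 0.60 on the treatment array.

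**Figure D1:**
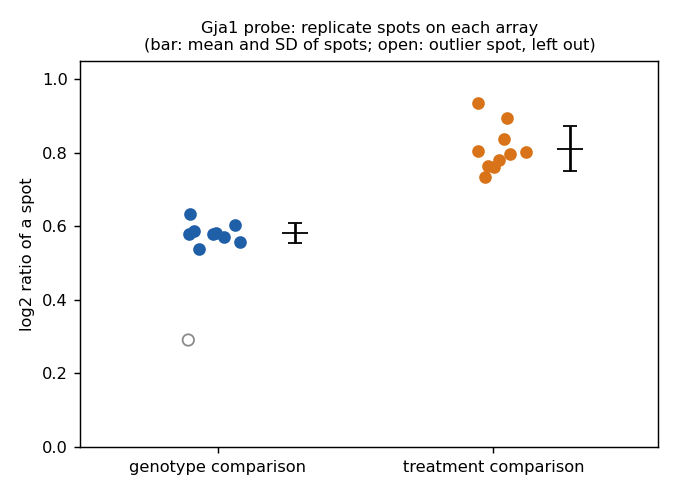
Log2 ratio (vertical axis) of each spot of the Gja1 probe on the genotype array (blue) and the treatment array (orange), with the mean and SD of the kept spots as a black bar and the outlier spot as an open circle. The kept spots run from 0.54 to 0.63 and from 0.73 to 0.93, and all are above 0.

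The brighter Gjb6 probe had the highest mean log2 ratio of the 7 probes. Its brightness after background subtraction was 385 in wild-type Cy5, 82.9 in deleted Cy3, 283 in vehicle Cy5 and 81.5 in deleted Cy3. The log2 ratio was 0.77 on the genotype array and 0.66 on the treatment array. The mean was 0.72 ± 0.08 (SD, n = 2), or 1.65-fold (95% interval of the log2 ratio 0.50 to 0.94), with a limma p of 0.00098 and an adjusted p of 0.104. Like Gja1, Gjb6 did not pass the test, and 1.34% of tested probes had a higher mean.

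The other Gjb6 probe gave a different reading of the genotype comparison. There its log2 ratio was -0.20, and in the treatment comparison 0.58, near the 0.66 of the brighter probe. Its brightness was 43.1 in wild-type Cy5 and 43.7 in deleted Cy3, against 133 in vehicle Cy5 and 37.3 in deleted Cy3. Within Cy5, vehicle was above wild-type RNA, and within Cy3 the deleted RNAs of both arrays were close. After normalization between the arrays the gap in Cy5 was smaller, with log2 brightness of 6.90 in wild-type and 7.58 in vehicle RNA. Its mean log2 ratio was 0.19 ± 0.55 (SD, n = 2; limma adjusted p = 0.672). The gene is read from its brighter probe here, and with the mean of both probes it had 0.29 and 0.62 on the arrays and a mean of 0.45 (limma adjusted p = 0.238). The brighter probe's spot in the genotype comparison had a local Cy5 background of 140 intensity units, against 62 for the median of its 47 neighboring spots and 55.5 for the whole array, and 0.0645% of spots had one as high. In the treatment comparison it was 57. With the neighbors' background in its place, the genotype log2 ratio was 0.89 and the mean 0.78 (limma adjusted p = 0.107). Whether the signal of that spot is affected in other ways was not tested.

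Gjb2 was lower with Sox9 on the genotype array and higher on the treatment array. Its brighter probe read 3309 in wild-type Cy5, 2214 in deleted Cy3, 6084 in vehicle Cy5 and 2092 in deleted Cy3. The Cy3 readings of the deleted RNAs were close, while vehicle Cy5 was higher than wild-type Cy5. After normalization between the arrays, log2 brightness was 11.27 in wild-type and 12.07 in vehicle Cy5. After normalization the log2 ratio was -0.39 on the genotype array and 0.52 on the treatment array. The mean was 0.06 ± 0.64 (SD, n = 2; limma adjusted p = 0.91), with a 95% interval of -0.63 to 0.76. The interval is wide, so differences from 0.65-fold to 1.69-fold lie within it. The dimmer probe ran the same way, with -0.11 and 0.30 and brightness of 97.2, 64.7, 172 and 69.1 in wild-type Cy5, deleted Cy3, vehicle Cy5 and deleted Cy3. Its mean was 0.09 ± 0.29 (SD, n = 2; limma adjusted p = 0.729).

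Lower values in the genotype comparison and higher values in the treatment comparison, each by at least 0.1 on the log2 scale, were found for both Gjb2 probes and the dimmer Gjb6 probe, that is, for 3 of the 6 tested member probes. Of all tested probes, 5.66% had that pattern. No test was made of the difference between the arrays, since each comparison is 1 array. Fibroblast markers had the same pattern: 8 of 9 were lower in the genotype and higher in the treatment comparison by at least 0.1, with median log2 ratios of -0.77 and 0.60, and Dcn (-0.77 and -0.14) was the exception. Col3a1 (-1.63 and 1.13), Col1a1 (-1.26 and 1.03) and Col1a2 (-0.84 and 1.07), genes of fibrillar collagens, had the widest gaps. The normalized brightness summed over the 9 markers was 31929 in wild-type, 56411 in deleted, 81164 in vehicle and 49612 in deleted RNA, and all 9 were well above background in all 4. Smooth muscle markers had medians of -0.26 and 0.63, and 5 of 6 had the pattern. It was also found for 1 of 11 tested suprabasal and squamous markers, Krt4 (-0.43 and 0.42). Of 4 tested endothelial markers, 1 had it, Emcn (-0.37 and 0.34). Among 15 tested genes for partners and regulators of gap junctions, 1 had it, Nov (-0.37 and 0.19). Of 11 stratified basal and 10 simple luminal markers, 0 had it. The part of any of these cell types in the Gjb2 and Gjb6 readings was not tested. In bulk RNA, fewer cells of a type and less RNA per cell cannot be told apart.

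**Figure D2:**
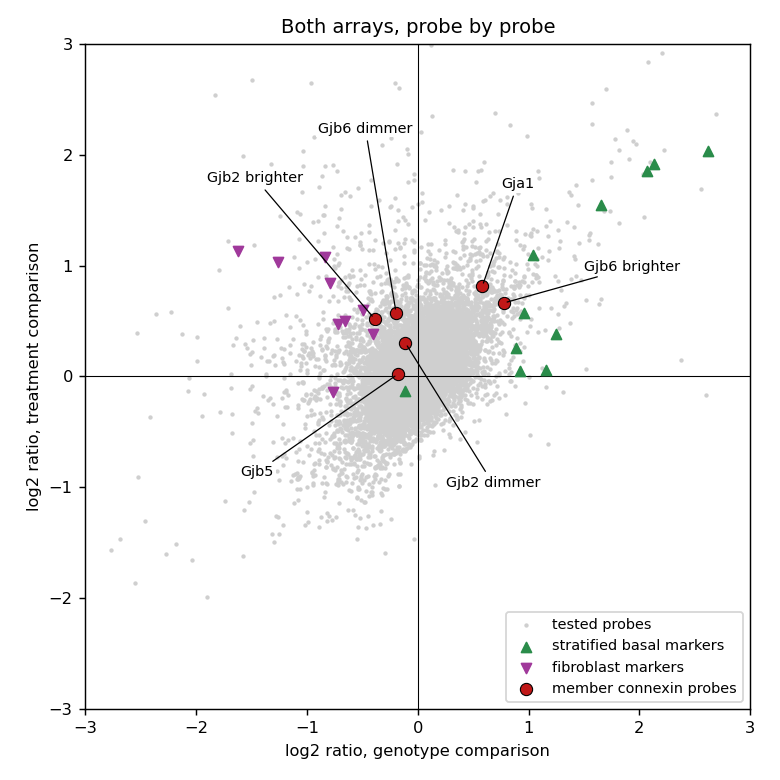
Log2 ratio on the genotype array (horizontal axis) against the treatment array (vertical axis) for the tested probes (gray; 11 probes lie outside the axes), the tested probes of the member connexins (red), markers of stratified basal cells (green) and fibroblast markers (purple). Gja1 and the brighter Gjb6 probe are positive on both axes, and both Gjb2 probes and the dimmer Gjb6 probe are in the upper left part, where 8 of the 9 fibroblast markers lie.

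Gjb5, a connexin of the suprabasal epidermis, was close to 0 on both arrays with the processing used, and farther below 0 on the genotype array with some others. Its brightness was 104 in wild-type Cy5, 75.5 in deleted Cy3, 131 in vehicle Cy5 and 71.2 in deleted Cy3. The log2 ratios were -0.18 and 0.02, which average -0.08 ± 0.14 (SD, n = 2; limma adjusted p = 0.674). The 95% interval was -0.33 to 0.17, so differences of up to that size in either direction lie within it.

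Gjb1 was not well above background in any of the 4 RNAs. Its brightness was 10.97 in wild-type Cy5, 8.78 in deleted Cy3, 18.4 in vehicle Cy5 and 12.9 in deleted Cy3, against medians of 8.04, 7.75, 3 and 7.29 for the 153 negative control spots in the same channels. Vehicle Cy5 was the farthest above its controls. The gene was not tested and no fold is given. Alb and Ttr, expressed in the liver where Gjb1 is abundant, were not well above background either. By contrast, all 10 simple luminal markers and 4 of 5 prostate luminal genes were well above background in all 4 RNAs.

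**Figure D3:**
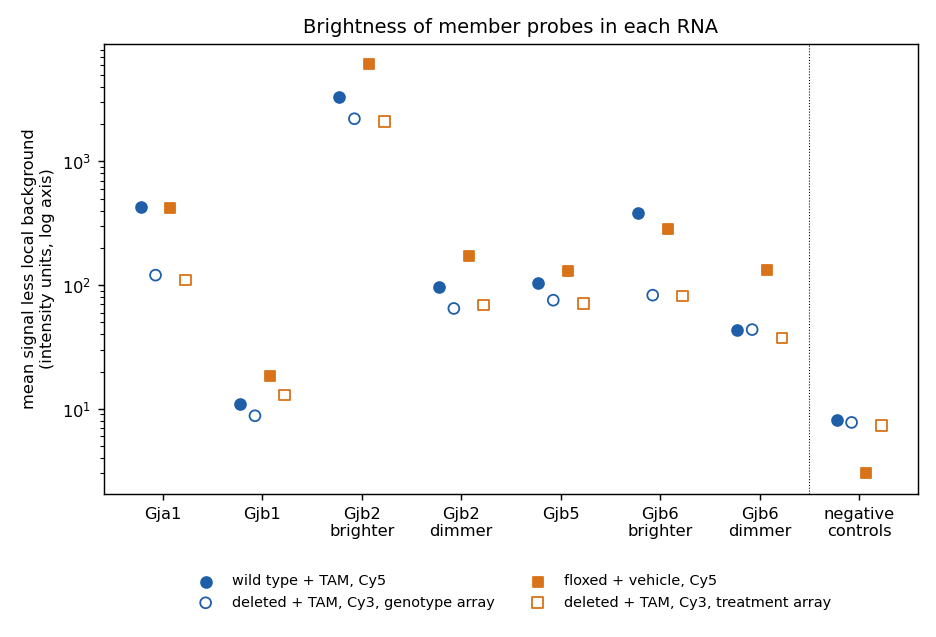
Mean signal less local background in intensity units (vertical log axis) of each member probe in the 4 RNAs, with the median of the negative control spots at the right. Filled symbols are Cy5 (Sox9-expressing) and open symbols Cy3 (Sox9-deleted), and the dyes differ in scale, and probes differ in how well they bind, so symbols are to be compared within 1 probe and 1 dye. Gjb1 lies at 8.78 to 18.4, next to the controls. The vehicle RNA is above the wild-type RNA for Gjb2, Gjb5, Gjb1 and the dimmer Gjb6 probe, but not for Gja1 and the brighter Gjb6 probe. The arrays are not adjusted to each other here.

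Over the members, 4 of 5 had a probe that could be tested, as had 6 of 7 probes. The number called by limma at an adjusted p under 0.05 was 0 of 4, and over all tested probes 0.0088% were called, which is 2 probes. No Sox9 probe was called either (limma adjusted p = 0.0591, 0.0824 and 0.0883), nor were Krt5 and Krt14 (both 0.0591). A gene that was not called is therefore not shown to be unchanged. At an unadjusted p under 0.05, 2 of the 6 probes were higher with Sox9, against 9.5% of all tested probes. The 2-fold rule, a log2 ratio of 1 or more in size and of 1 sign on both arrays, took 0 of the 4 genes and 0.418% of probes. By their brightest probe, Gja1 and Gjb6 were higher on both arrays, as were 5096 of 15063 tested genes and 34.6% of tested probes. The dimmer Gjb6 probe was not, with -0.20 on the genotype array. Of the 4 genes, 0 were lower on both arrays. Gjb2 had opposite signs on the arrays (-0.39 and 0.52). So had Gjb5, but its treatment value was only 0.02, and its sign there depended on the processing. The count of calls rests on the normalization within each array: with median centring in place of loess, Gja1 (mean log2 ratio 0.92, limma adjusted p = 0.0352) and Gjb6 (0.91, limma adjusted p = 0.0378) passed. That setting shifted the median of all probes to 0.379 in the treatment comparison, and relative to the medians both genes had 0.72. With so few genes these shares are a description of the members and not a comparison of the list with other genes.

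**Figure D4:**
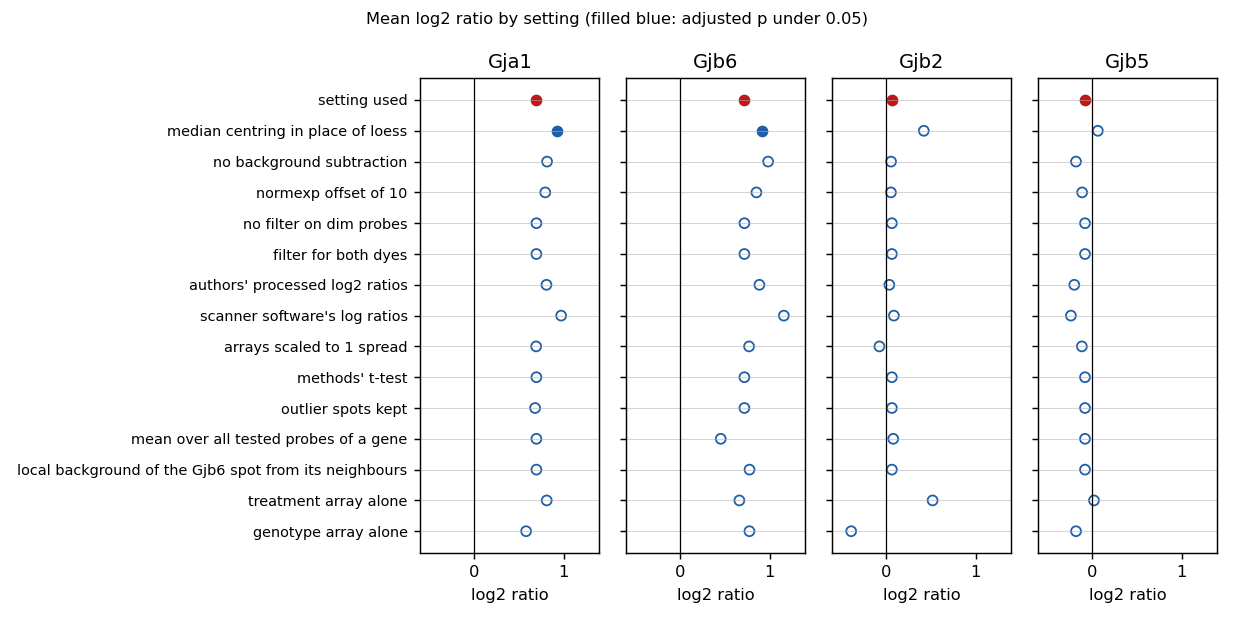
Mean log2 ratio (horizontal axis) of Gja1, Gjb6, Gjb2 and Gjb5 under the setting used (red), under each alternative setting and on each array alone (blue; filled where the adjusted p is under 0.05). Gjb2 and Gjb6 are read from their brighter probe, except in the row that averages the probes of a gene. Read so, Gja1 and Gjb6 are above 0 in every row and filled with median centring, whereas Gjb2 and Gjb5 lie on both sides of 0. The dimmer Gjb6 probe, which is not drawn, had -0.20 on the genotype array alone.

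The other connexins reported had mean log2 ratios from -0.32 to 0.20. Of 15 further symbols listed, 10 were on the array and 4 could be tested, with a median log2 ratio of 0.06, beside 0.003 over the 15063 tested genes. None of the 4 was called or had an unadjusted p under 0.05 in limma. Gjd3 had 0.13 and 0.26, which average 0.20 ± 0.09 (SD, n = 2; limma adjusted p = 0.319). Gjc1 had 0.00 and 0.31. Gja4 and Gja5, known from arteries, had means of -0.03 and -0.32, the latter from -0.51 and -0.13. The Gja5 probe that gives -0.32 lies at chr3:98214966-98215025, away from the probe at chr3:96857349-96857408, which had -0.13 and 0.02, so its assignment to Gja5 is uncertain. Gja3, Gja6, Gja10, Gjd2, Gjd4 and Gje1 were not tested, being too near background. Panx1, a pannexin, which forms channels in single membranes rather than between cells, had 0.38 and 0.25, which average 0.32 ± 0.10 (SD, n = 2; limma adjusted p = 0.205). A second Panx1 probe and Panx3 were near background.

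**Figure D5:**
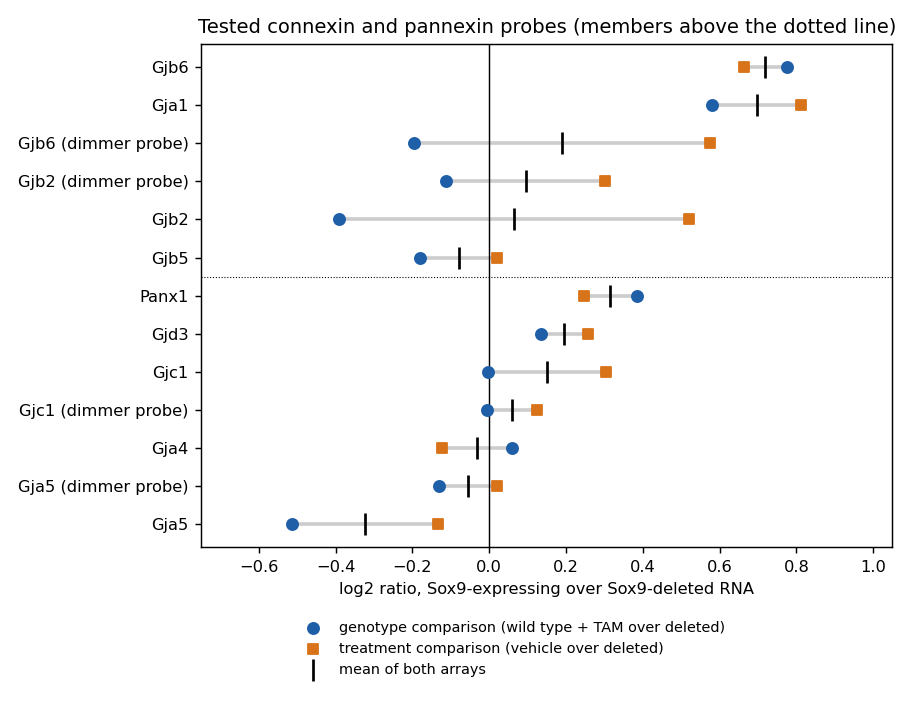
Log2 ratio (horizontal axis) of the tested connexin and pannexin probes reported, on the genotype array (blue circles) and treatment array (orange squares), with the mean of both as a black tick and the member genes above the dotted line. Gja1 and the brighter Gjb6 probe are at 0.58 to 0.81 on both arrays, whereas both Gjb2 probes and the dimmer Gjb6 probe have opposite signs.

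RNA for proteins that anchor, phosphorylate or degrade connexins was read from 15 tested genes of a list of 16. Of these, 5 were higher and 7 lower on both arrays, 0 were called, and their median log2 ratio was -0.09. Cav1, which encodes caveolin and is found at gap junction plaques, had 0.43 and 0.51 (mean 0.47 ± 0.06, limma adjusted p = 0.138). Csnk1d, a kinase of the Gja1 protein, had 0.41 and 0.38 (mean 0.39 ± 0.02, limma adjusted p = 0.159). Ezr, a linker of membrane and actin, had -0.51 and -0.54 (mean -0.52 ± 0.02, limma adjusted p = 0.122). Beside these, both arrays gave positive ratios for 10 of 11 markers of stratified basal cells (median 0.82), of which Col17a1 (2.33), a hemidesmosomal collagen, had the highest mean. Of the 11 tested markers of suprabasal and squamous cells, 7 were higher and 3 lower on both arrays, with Krt10 at 1.96, Ivl at -1.72 and Lor at 1.25. Of 10 markers of simple luminal epithelium, 2 were higher and 6 lower, with a median of -0.30, and Cldn3, a tight junction protein, had the lowest mean (-1.27). The number of these markers called by limma was 0 of each list. Their part in the Gja1 and Gjb6 values was not tested.

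With 2 arrays, many genes share the pattern of any 1 gene. The nearest to Gja1 by Euclidean distance of the 2 log2 ratios were AI646023 at 0.0194, Aldoc at 0.0327 and H3f3a at 0.0345, and 27 genes were within 0.1. To Gjb6 they were Rbmx at 0.0134, Ddr1 at 0.0287 and Stard4 at 0.0371, with 21 genes within 0.1. To Gjb2 they were Prrx1 at 0.0265, Rgl1 at 0.0347 and 1200009F10Rik at 0.0381, also with 21 genes within 0.1. To Gjb5, which was near 0 on both arrays like most genes, they were Med18 at 0.00861, Tmem150 at 0.00873 and 9030607L17Rik at 0.0091, with 708 genes within 0.1.

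The 250 bases before the start of Gja1 and Gjb6, the members higher on both arrays by their brightest probe, are shown. The Sox motif cores ACAATG and ACAAAG, the AP-1 motif TGANTCA and the GC box GGGCGG, searched on both strands, are in capitals. The sequences are from RefSeq on GRCm38.p6, in which all 5 members were matched.
Gja1, chr10:56377050-56377299 (plus): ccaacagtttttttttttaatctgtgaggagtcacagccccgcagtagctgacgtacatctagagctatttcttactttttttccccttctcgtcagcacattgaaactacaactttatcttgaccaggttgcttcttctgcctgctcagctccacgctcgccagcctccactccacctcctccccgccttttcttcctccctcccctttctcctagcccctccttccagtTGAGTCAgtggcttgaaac
Gjb6, chr14:57133612-57133861 (minus): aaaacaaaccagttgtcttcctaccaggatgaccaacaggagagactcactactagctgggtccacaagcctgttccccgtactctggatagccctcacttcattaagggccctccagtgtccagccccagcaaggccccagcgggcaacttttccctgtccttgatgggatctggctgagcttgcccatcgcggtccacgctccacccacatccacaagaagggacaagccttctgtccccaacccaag
The capitals in Gja1 mark 1 match to the AP-1 motif, which 6.75% of the 32851 promoter windows of 250 bases hold. The Gjb6 window holds no match. Neither holds a Sox core, nor do the windows of Gjb2 and Gjb5, against 10.7% of all windows with ACAATG and 16.5% with ACAAAG. Gjb1, the member not well above background, has 4 windows for its several starts, and 2 of them hold Sox cores: one has ACAAAG and another has both ACAATG and ACAAAG, together with 3 GC boxes. The Gjb2 window has 2 GC boxes (32.7% of all windows have 1 or more). These are matches of letters and draw nothing about binding.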

How the data were processed

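Both arrays are Agilent whole mouse genome arrays, and per the file headers Feature Extraction 10.5.1.1 read them on mm9. The deposited intensity of each spot is its mean signal and its local background in each channel, which the authors' scanner software left uncorrected. After its own background and dye correction the software gave the Cy5 to Cy3 ratio on a log10 scale, also deposited. The authors further deposited a table of log2 ratios, whose scale follows from a slope of 3.12 and 3.14 on the log10 ratios, and how it was made is not given in the sources used here.

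From the intensities, normexp background correction (offset 50) and loess within each array were run in limma 3.58.1 (R 4.3.3). Control spots and outlier spots (126 and 130) were left out and the spots of a probe were averaged. Net brightness is mean signal less local background. Normalized brightness is the single-channel value after normexp with its offset, loess and Aquantile. The 22731 of 41174 probes in which the same dye was well above background on each array were tested: the mean log2 ratio against 0 by lmFit and eBayes, 2-sided, Benjamini-Hochberg over tested probes. There is 1 residual degree of freedom, and the prior has 2.8. A gene was read from its brightest tested probe. Precision is limited by having 2 arrays. The offset shrinks ratios of dim probes. The code was tested on simulated data.

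The members and gene lists were chosen with earlier results of these data known. Named are all members and other connexins and pannexins, except some genes that are not reported here, up to 3 genes a list with the largest mean, the 3 genes nearest to each member, and Sox9, Krt5 and Krt14. Further genes named as examples of a list were chosen after their values were seen. Endothelial and immune marker lists had 4 and 3 of 6 genes tested, with median log2 ratios of -0.08 and -0.04, and of 5 prostate luminal genes 4 were tested, with 0.24. Sequences and figures were handled in Python 3.11.15, pandas 2.3.3 and matplotlib 3.10.9.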

Additional observations from a re-analysis of the deposited data

Results flagged for a closer look

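Opposite directions on the arrays, each by at least 0.1 on the log2 scale, were found for 3 connexin probes. The treatment log2 ratio exceeded the genotype log2 ratio by 0.91 for the brighter Gjb2 probe, by 0.41 for the dimmer Gjb2 probe and by 0.77 for the dimmer Gjb6 probe. Each comparison is 1 array, so these differences were not tested.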

How the results depend on the processing

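Across 12 alternative settings, Gja1 (0.68 to 0.97; limma or methods' t-test adjusted p 0.0352 to 0.6) and Gjb6 (0.45 to 1.16; 0.0378 to 0.585) stayed positive. With median centring in place of loess, both passed the threshold, with 0.92 (adjusted p = 0.0352) for Gja1 and 0.91 (adjusted p = 0.0378) for Gjb6, so 2 members were called in place of 0. That setting moved the median of all tested probes to 0.379 in the treatment comparison and called 522 probes in place of 2. Relative to those medians Gja1 had 0.72 and Gjb6 0.72. The same setting turned Gjb5 to 0.064 (-0.13 relative to the medians). Gjb5 had its lowest mean, -0.24, in the scanner software's ratios, where it was below 0 on both arrays (-0.39 and -0.085). It was also below 0 on both without background subtraction (-0.34 and -0.018). On the genotype array it had -0.44 in the authors' ratios. Scaling the arrays to 1 spread turned Gjb2 to -0.075, and the authors' processed log2 ratios turned its dimmer probe to -0.0051. The dimmer Gjb6 probe had a genotype log2 ratio of -0.40 without background subtraction and -0.88 in the scanner software's ratios. On the genotype array it was below 0 in every setting that read it alone. No ratio is given for Gjb1 under any setting, since it was not well above background in any RNA. Over all probes, 21 were called with no filter, 68 in the authors' ratios and 2 with the filter for both dyes. Without background subtraction, with an offset of 10, in the scanner software's ratios, with arrays scaled, in the methods' t-test and with the mean over a gene's probes the count was 0. The cause of these differences was not tested. The replaced local background at Gjb6 was chosen after seeing the data.

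With 1 array left out there is no test, and the log2 ratio ran from 0.58 to 0.81 for Gja1, from 0.66 to 0.77 for Gjb6, from -0.39 to 0.52 for Gjb2 and from -0.18 to 0.021 for Gjb5. It ran from -0.11 to 0.30 for the dimmer Gjb2 probe and from -0.20 to 0.58 for the dimmer Gjb6 probe. No paired analysis was possible because each array is 1 ratio and the arrays form 1 group.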
